A study of Mus musculus with 8 samples.

Results

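The ATF4 stress response genes described here are a fixed list of 10 genes: the transcription factors Atf4, Atf3, Atf5, Ddit3 and Cebpb, and the effectors Ddit4, Trib3, Chac1, Asns and Ppp1r15a. They were followed in RNA bound by YTHDF3, a cytoplasmic reader of N6-methyladenosine (m6A), and in the input RNA of the same cells. YTHDF3-bound RNA was recovered by RNA immunoprecipitation and sequenced (RIP-seq) from wild-type C57BL/6 mouse embryonic fibroblasts (MEFs), isolated from embryos at day 13.5 and used at passage 5 to 6. Normal MEFs grew in full medium, and starved MEFs spent 2 h in nutrient-deprived medium, with 2 replicates per condition. Each replicate gave an IP and an input library, so that 4 peak lists were compared, named here normal 1, normal 2, starved 1 and starved 2. All 4 came from unmodified cells, and no source used here says that the replicates were separate isolations.

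Of 87940 peaks in the 4 lists, 38 carried the name of a member, 8 of 17546 in normal 1, 7 of 22189 in normal 2, 11 of 23294 in starved 1 and 12 of 24911 in starved 2. Of the 10 members, 4 had a peak under their name, with 21 peaks for Chac1, 14 for Atf4, 2 for Trib3 and 1 for Cebpb. Atf3, Atf5, Ddit3, Ddit4, Asns and Ppp1r15a had none in any of the 4 lists. The name given to a peak is that of the gene with the nearest start site. In mm10 with the GENCODE vM21 exons, 5 of the 38 named peaks lay over an exon of the gene they were named for. The same share over all 87940 peaks was not counted, so the 5 of 38 cannot be called low or high. A further 3 peaks over the last exon of Trib3 carried the name of its neighbour Rbck1. The peaks over the members' own exons were thus 8 in all, at Trib3, Chac1 and Cebpb. Over all genes, 7997 had a peak over an exon in any list. The share of all annotated genes with a peak, by name or by exon, was not counted.

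ATF4 is the transcription factor at the center of the integrated stress response. Amino acid shortage activates the kinase GCN2 and misfolded protein in the endoplasmic reticulum activates PERK, and both phosphorylate eIF2. Bulk translation then falls while Atf4 mRNA, which carries upstream open reading frames, is translated more. ATF4 protein turns on genes of amino acid synthesis and transport and, with its partner CHOP (Ddit3), genes of stress feedback and cell death. m6A readers such as YTHDF3 bind methylated mRNA, and the m6A mark often lies within short motifs that hold GGAC.

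The 8 peaks over Trib3, Chac1 and Cebpb exons and the 13 named Atf4 over Mief1 exons are the places in these lists where reads can be followed. Below are stretches of coding sequence inside those peaks, with the most GGAC per 120 bases, to show the letters of the mm10 genome under the enriched reads. They are read in the transcribed direction, 5′ to 3′, with each GGAC in capitals. For Trib3 exon 1, which is untranslated, a site of 30 bases is shown. For Mief1 only the exon 6 stretch is shown. The stretches from its other peaks held 0 GGAC at chr15:80246744-80246863 and 2 at chr15:80248348-80248467.
Trib3 exon 4, chr2:152338568-152338687, minus strand: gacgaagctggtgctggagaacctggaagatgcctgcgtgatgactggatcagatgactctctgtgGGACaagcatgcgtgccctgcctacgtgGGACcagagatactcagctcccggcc
Trib3 exon 1, chr2:152343857-152343886, minus strand: gcgcaggcggctctgaggctccaGGACaag
Chac1 exon 1, chr2:119351424-119351543, plus strand: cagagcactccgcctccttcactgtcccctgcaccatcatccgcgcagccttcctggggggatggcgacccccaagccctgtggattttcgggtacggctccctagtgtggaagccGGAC
Chac1 exon 3, chr2:119353411-119353530, plus strand: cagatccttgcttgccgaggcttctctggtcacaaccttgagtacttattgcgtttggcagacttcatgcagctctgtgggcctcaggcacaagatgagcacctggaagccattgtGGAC
Cebpb, chr2:167689343-167689462, plus strand: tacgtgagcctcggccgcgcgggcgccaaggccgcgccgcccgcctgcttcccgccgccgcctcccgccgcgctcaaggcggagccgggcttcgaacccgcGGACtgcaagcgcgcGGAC
Mief1 exon 6, chr15:80249371-80249490, plus strand: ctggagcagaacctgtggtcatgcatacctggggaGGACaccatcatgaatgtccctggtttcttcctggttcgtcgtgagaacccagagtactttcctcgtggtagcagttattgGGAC

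In each list, a peak's IP/input fold is the IP value over the input value, with input reads below 3 raised to 3 reads. Peaks were kept at a fold of at least 2 and p below 0.0001, which held for 37 of the 38. Peaks of the 4 lists that shared 1 bp or more were merged into 39979 regions, and 6531 of these, 16.3%, had a peak in all 4 lists. The named peaks fell into 20 regions, of which 3 had a peak in all 4 lists, all of them over Mief1. The 5 regions over exons of a member had none with a peak in all 4 lists, so no test across replicates could be made for Trib3, Chac1 or Cebpb. A gene with no peak may still be expressed or bound, since the lists hold no reads outside peaks. The smallest peaks held 13 IP reads in normal 1, 11 in normal 2, 17 in starved 1 and 14 in starved 2, and the total depth of the libraries is unknown. In such bulk samples, fewer expressing cells and less RNA per cell cannot be told apart.

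**Figure D1:**
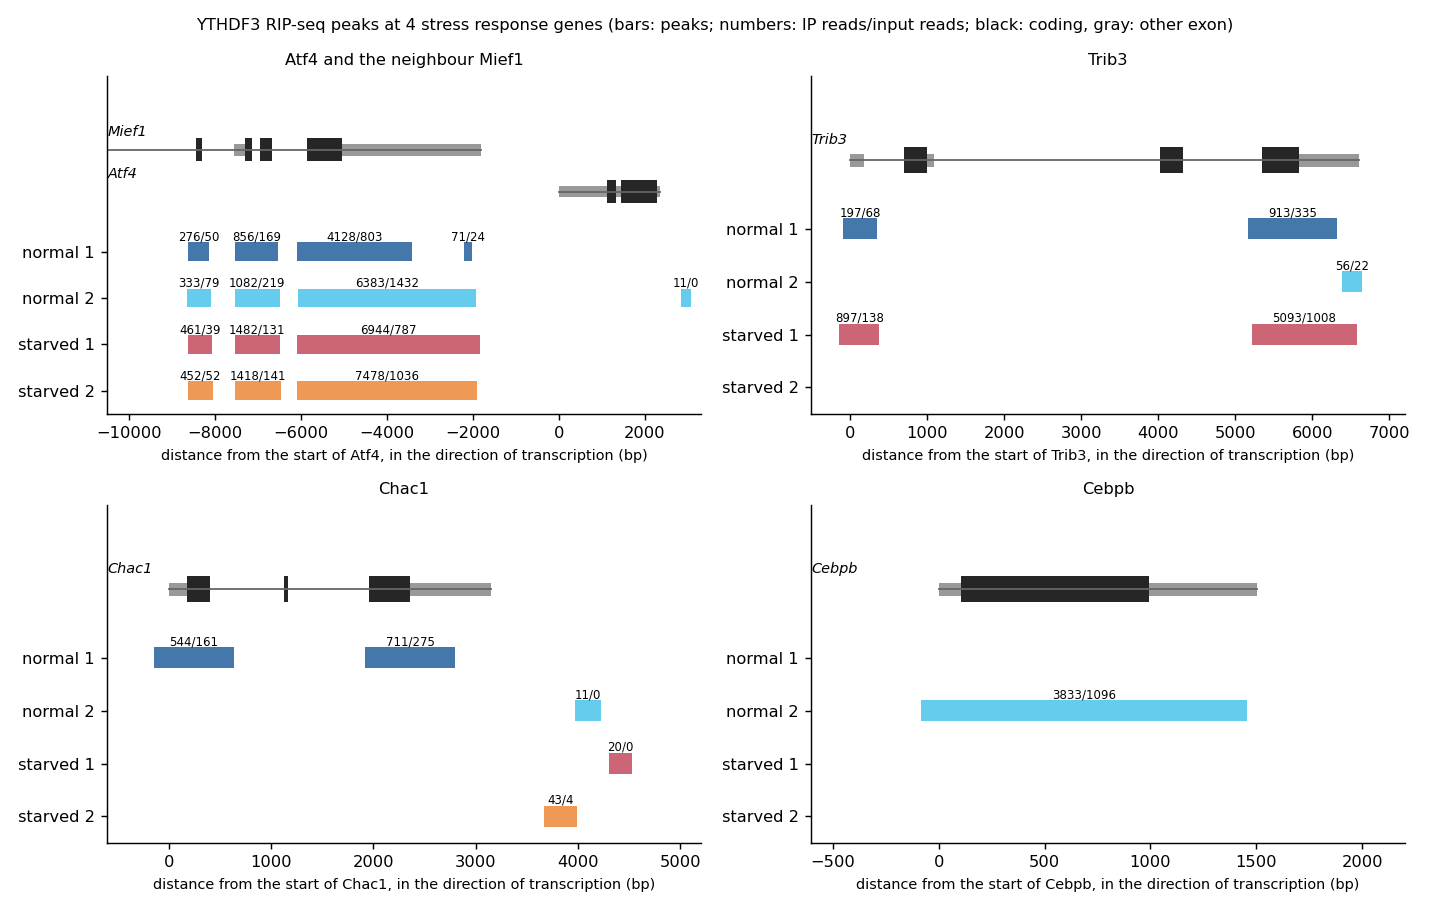
Peaks in the 4 lists (colored bars, with IP reads/input reads above) at Atf4 with its neighbour Mief1, at Trib3, Chac1 and Cebpb, against the distance in bp from the start of the gene. The 13 bars upstream of Atf4 lie over Mief1, none lies over Atf4, and the bars over Trib3, Chac1 and Cebpb occur in at most 3 of the 4 lists.

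Trib3 encodes a pseudokinase that is induced by ATF4 and CHOP and restrains AKT and ATF4 itself. It lies at chr2:152337422-152344032 on the minus strand. Its exon 1 peak held 197 IP reads and 68 input reads in normal 1 and 897 IP reads and 138 input reads in starved 1, and there was no peak in replicate 2 of either condition. Per kb of peak this was 447.7 IP reads in normal 1 and 1725 in starved 1, and 154.5 against 265.4 input reads. The peak over Trib3 exon 1 thus held more reads in the starved list of replicate 1 in both the IP and the input. Its length was 440 bp in normal 1 and 520 bp in starved 1, and 176 bp of each lay over Trib3 exon bases. The reads are therefore not those of exon bases alone. The IP/input fold was 2.34 (95% interval 1.76 to 3.13) in normal 1 and 2.79 (2.33 to 3.36) in starved 1, and these intervals, which are exact binomial and cover counting error only, overlapped.

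The exon 4 region of Trib3 runs over the end of the coding sequence, the stop codon and the 3′ UTR. In normal 1 it held 913 IP reads and 335 input reads over 1160 bp, and in starved 1 it held 5093 IP reads and 1008 input reads over 1370 bp. In normal 2 a peak of 260 bp past the stop codon held 56 IP reads and 22 input reads, and starved 2 had no peak. Per kb, IP reads in replicate 1 were 787.1 in normal and 3718 in starved MEFs, and input reads were 288.8 and 735.8. At exon 4, starved 1 thus held more IP and input reads per kb than normal 1. The normal 2 peak shares no base with the normal 1 peak, so the values of these 2 lists cover different bases. Starved 2 has no peak and gives no level. The fold was 2.20 (1.94 to 2.50) in normal 1, 2.17 (2.02 to 2.32) in starved 1 and 2.54 (1.53 to 4.38) in normal 2.

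On the log2 scale, IP reads per kb were higher in starved 1 than in normal 1 by 1.95 at Trib3 exon 1 and by 2.24 at exon 4. Over the 6531 regions with a peak in all 4 lists, the median of the same difference was 0.77 in replicate 1 and 0.44 in replicate 2. Less that median, the differences at Trib3 were 1.18 and 1.47, above 98.3% and 99.2% of those regions. Input reads per kb differed by 0.78 at exon 1 and 1.35 at exon 4, against a median of -0.09 in replicate 1, which placed them above 89.9% and 96.0% of the regions. The log2 difference of the fold was 0.25 at exon 1 and -0.02 at exon 4, beside a median of -0.06. Trib3 reads were therefore more abundant in starved 1 in IP and input together, with the fold at exon 4 about level. This rests on 1 list per condition, with no replicate check.

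**Figure D2:**
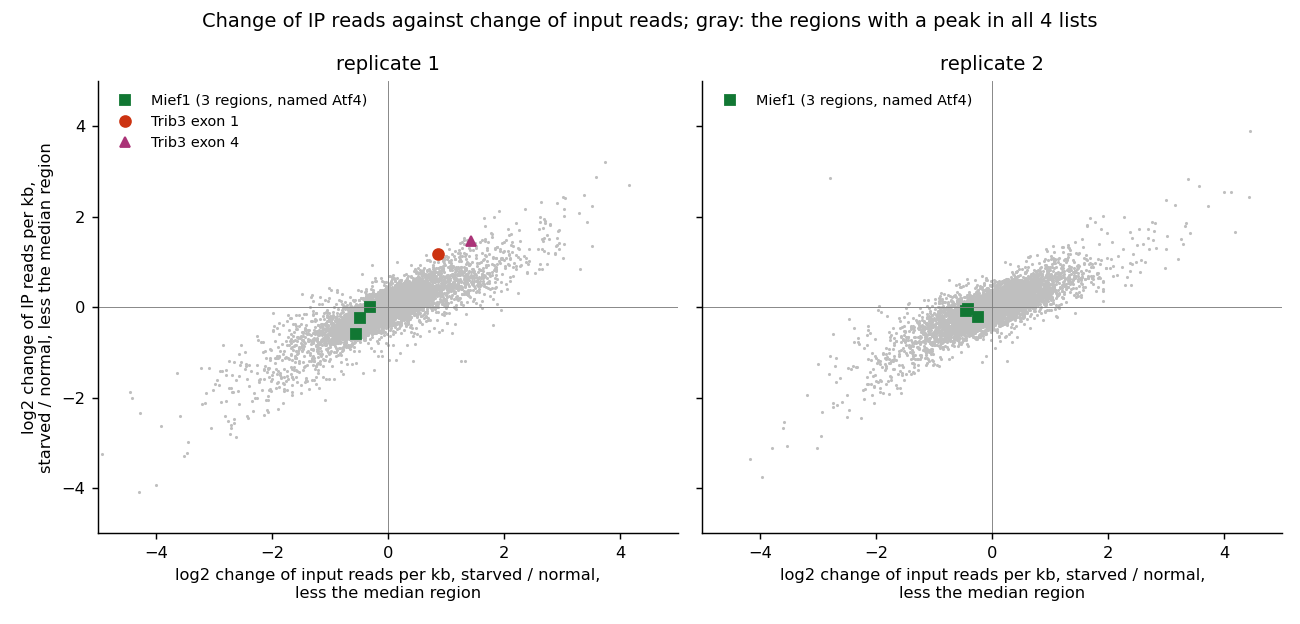
Log2 difference of IP reads per kb (vertical) against that of input reads per kb (horizontal), starved against normal MEFs, each less the median region, for the 6531 regions with a peak in all 4 lists (gray points) and the regions at Trib3 and Mief1 (colored). In replicate 1 both Trib3 regions lie at the upper right, at 1.18 and 1.47 in IP, and in replicate 2 neither can be drawn. The 3 Mief1 regions lie at or below 0 in both measures.

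Chac1 encodes a γ-glutamylcyclotransferase that degrades glutathione and is a target of ATF4. It lies at chr2:119351229-119354381 on the plus strand. In normal 1 a peak over exon 1, which holds the start codon, had 544 IP reads and 161 input reads, and a peak over exon 3, which holds the stop codon, had 711 IP reads and 275 input reads. These 2 peaks covered 76.4% of the exonic bases of Chac1. Of the 790 bp of the exon 1 peak, 408 lay over Chac1 exon bases, and of the 880 bp of the exon 3 peak, 842 did. The fold was 2.73 (2.28 to 3.27) over exon 1 and 2.09 (1.81 to 2.40) over exon 3. Normal 2, starved 1 and starved 2 had no peak over Chac1 exons, so no level can be given for them. Of all 7997 genes with an exon peak in any list, 391 had it in normal 1 alone.

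The other 19 peaks named Chac1 lay outside its exons. Past the end of Chac1, over no annotated exon, there were 3 small peaks, with 11 IP reads and 0 input reads in normal 2, 20 and 0 in starved 1, and 43 and 4 in starved 2. The other 16 lay over exons of Ino80, the gene of a chromatin remodeling ATPase on the minus strand, between 22319 and 61329 bp from the start of Chac1. By list they numbered 1 in normal 1, 1 in normal 2, 6 in starved 1 and 8 in starved 2. Their IP reads ran from 12 in normal 2 to 336 in starved 1, and no region of them had a peak in all 4 lists. The larger count of peaks named Chac1 in the starved lists, 7 and 9 against 3 and 2, was therefore made up of peaks at Ino80 and past the end of Chac1, with none over Chac1 exons.

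Cebpb encodes C/EBPβ, a basic leucine zipper factor that ATF4 induces and dimerizes with. Its gene is a single exon at chr2:167688915-167690418 on the plus strand. Normal 2 had a peak of 1540 bp over 96.8% of it, including the start and stop codons, with 3833 IP reads and 1096 input reads. The fold was 3.50 (3.27 to 3.74), and the IP reads per kb, 2489, were above those of 97.5% of the peaks in that list. No other list had a Cebpb peak. Of all 7997 genes with an exon peak in any list, 366 had it in normal 2 alone. The peak also overlaps an exon of Tmem189 on the minus strand, and since no source used here states that counting used strand, reads of the 2 genes cannot be told apart.

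**Figure D3:**
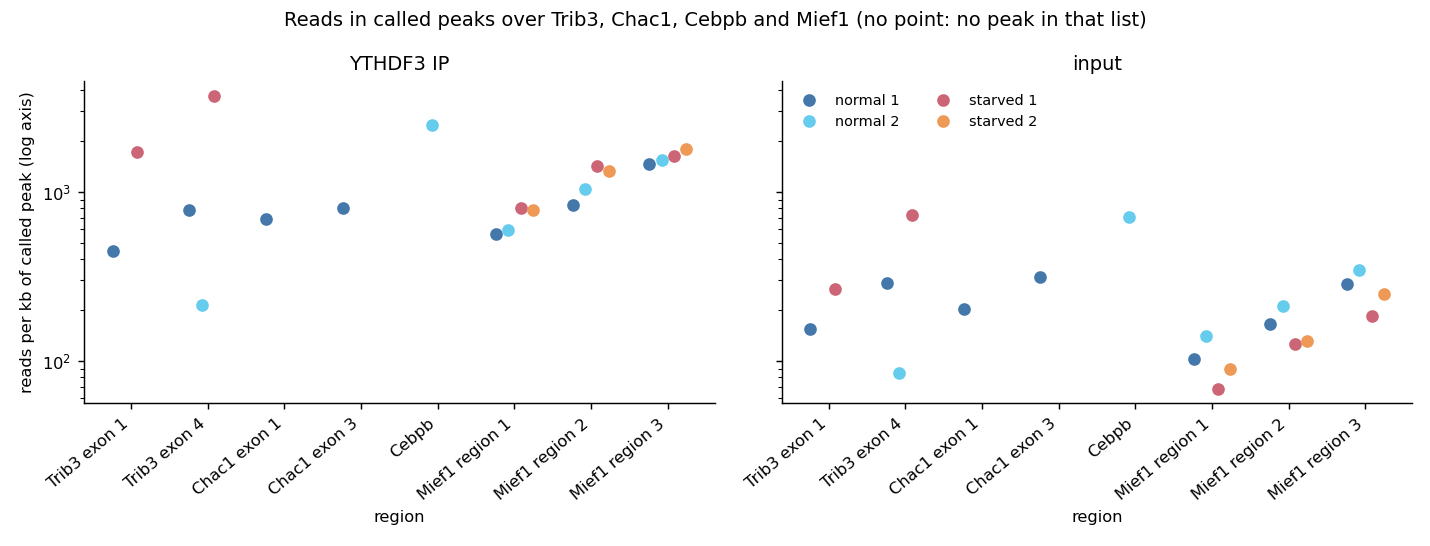
Reads per kb of called peak on a log axis in the IP (left) and the input (right) for the regions over Trib3, Chac1, Cebpb and Mief1, 1 point per list and no point where the list has no peak. Trib3 was highest in starved 1 in both panels, Chac1 has points in normal 1 alone and Cebpb in normal 2 alone. Among all 7997 genes with an exon peak, 391 had it in normal 1 alone and 366 in normal 2 alone. At Mief1, the starved points lie above the normal ones in the IP and below them in the input. These reads are not scaled between lists, and of the 6531 regions 74.9% showed the IP pattern and 22.5% the input pattern.

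Atf4 itself, at chr15:80255184-80257541 on the plus strand, had no peak over any of its exons in the 4 lists. Of the 14 peaks named for it, 13 lay over exons of Mief1, the upstream neighbour on the same strand, whose product recruits the fission factor DRP1 to mitochondria. The remaining peak lay 490 bp past the end of Atf4 in normal 2, with 11 IP reads and 0 input reads, the smallest number of IP reads in that list. The values given for Atf4 by peak name are thus values of Mief1.

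Mief1 had 3 regions with a peak in every list. In the order given below, 151 of 600 bp, 674 of 1080 bp and 4012 of 4240 bp lay over Mief1 exon bases. In the region at chr15:80246531-80247130 IP reads were 276 in normal 1, 333 in normal 2, 461 in starved 1 and 452 in starved 2, and input reads were 50, 79, 39 and 52 in that order. In the region at chr15:80247641-80248720 IP reads were 856, 1082, 1482 and 1418, and input reads 169, 219, 131 and 141. In the longest, chr15:80249101-80253340, which spans the last coding stretch and the 3′ UTR, IP reads were 4199, 6383, 6944 and 7478, and input reads 827, 1432, 787 and 1036. Per kb of peak, both starved lists lay above both normal lists in IP reads at all 3 regions and below them in input reads at all 3. Of the 6531 regions, 74.9% showed the first pattern and 22.5% the second.

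The IP/input fold of a region in a list is that of its peak with the highest fold, while its reads are summed over its peaks. By that rule the folds of the 3 Mief1 regions stood between 3.78 and 6.70 in the 4 lists, where the median peak had 2.97 to 3.11. Normal 1 alone had a second peak in the longest region, with 71 IP reads, 24 input reads and a fold of 2.39, below the median peak. At the first region they were 4.45 in normal 1, 4.21 in normal 2, 5.07 in starved 1 and 5.79 in starved 2. At the second they were 4.09, 4.94, 4.85 and 6.70, and at the longest 4.15, 4.46, 3.78 and 4.81. The normal and starved folds did not overlap at the first region and did overlap at the other two, and 14.7% of the 6531 regions had both starved folds above both normal ones. From normal to starved, the log2 fold differed by 0.19 and 0.46 at the first region in replicates 1 and 2, by 0.25 and 0.44 at the second, and by -0.13 and 0.11 at the longest.

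None of the 3 Mief1 regions reached a 1.8-fold change of the IP/input fold in both replicates. Of the 6531 regions, 0.367% did so with a higher fold in starved MEFs and 0.352% with a lower one. With 2 lists per condition, an exact permutation test cannot give a two-sided p below 0.333. In edgeR's quasi-likelihood test of the IP/input ratio, the log2 differences were 0.30 ± 0.28 (SE), 0.31 ± 0.23 and -0.03 ± 0.18, each with an adjusted p of 0.999. That test called 0.0153% of regions higher (1 region) and 0% lower in starved MEFs, with 82 higher and 101 lower at an unadjusted p under 0.05, and DESeq2 also called 1 higher and 0 lower.

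IP reads per base of Mief1 differed between starved and normal MEFs by -0.14 ± 0.21, -0.04 ± 0.20 and -0.39 ± 0.20 on the log2 scale after scaling to all regions (edgeR, adjusted p 0.904, 0.978 and 0.569). In that fit 0.184% of regions were higher and 0.934% lower in starved MEFs. Input reads per base differed by -0.44 ± 0.38, -0.36 ± 0.29 and -0.38 ± 0.22 (edgeR, adjusted p 0.876, 0.868 and 0.777), where 0.214% of regions were higher and 0.766% lower. Most regions held more IP reads per kb in starved MEFs before that scaling, and less the median region the IP difference at Mief1 was below 0 at all 3 regions in both replicates. These p-values measure only the spread between these libraries, which may be technical.

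The 3 regions of other genes closest to the longest Mief1 region in IP and input reads per kb over the 4 lists were those of Rbm15, Elmsan1 and Qrfp, as the peaks are named. Their distances over 8 log2 values, each less its median, were 0.44, 0.47 and 0.55, and the median region stood at 4.70. Rbm15, which encodes an adaptor of the m6A methyltransferase complex, held 1273, 1256, 1805 and 1802 IP reads per kb in normal 1, normal 2, starved 1 and starved 2. Mief1 held 1458, 1538, 1638 and 1793.

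Atf3, Atf5 and Ddit3 are bZIP factors of the same response, and none had a peak over its exons in any list. Atf3 (chr1:191170296-191218039, minus strand) was 86216 bp from the nearest peak, which lay over Nsl1. Ddit3 (chr10:127290774-127296288, plus strand), whose product CHOP drives cell death under lasting stress, was 1784 bp from a starved 2 peak over Mbd6. The paper, however, names DDIT3 among autophagy genes where YTHDF3 RIP-seq peaks that rose on starvation met peaks of raised m6A. By RIP with qPCR it reports more YTHDF3 binding on starvation for most of those genes, ZFYVE26 excepted. The reason for this difference was not tested, and the lack of a Ddit3 peak here does not show a lack of binding. Atf5 (chr7:44812256-44816658, minus strand) had a starved 1 peak within its gene body, at chr7:44816071-44816350, but over an exon of Nup62 on the other strand and named for it.

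Of the effectors without a peak, Ddit4 (chr10:59949669-59951834, minus strand), also called REDD1, restrains mTORC1. The peak nearest to it was 346237 bp away. Asns (chr6:7675169-7693254, minus strand), asparagine synthetase and a standard readout of amino acid limitation, was 151437 bp from the nearest peak. Ppp1r15a (chr7:45522916-45526268, minus strand) encodes GADD34, the subunit that directs a phosphatase to eIF2 in the feedback arm. It was 30876 bp from a normal 2 peak over Nucb1.

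GGAC was searched on the transcribed strand alone, where it cannot overlap itself. The 5 regions over Trib3, Chac1 and Cebpb exons held 34 GGAC in 5210 bp, 6.53 per kb, from 1.92 at Trib3 exon 1 to 8.78 at Trib3 exon 4. Cebpb held 12, or 7.79 per kb, Chac1 exon 1 and exon 3 held 4 each, or 5.06 and 4.55 per kb, and the sequences above come from these stretches. Over exonic bases alone Trib3 exon 1 held 5.68 per kb and Trib3 exon 4 held 6.32, and the range ran from 4.75 at Chac1 exon 3 to 8.24 at Cebpb. Over the 6460 regions with a peak in all 4 lists that could be placed on an exon, the median was 4.09 per kb, and 4.62 over exonic bases. None of the 5 member regions is among the 6460, and 6.53 is a pooled rate and not a median. GGAC lay in the central 200 bp of 4 of the 5 member regions, Trib3 exon 4 being the other, and in 61.8% of the 6460 regions. All 5 member regions were richer in GC than the median region, at 52.4%, from 54.7% at Trib3 exon 4 to 69.2% at Cebpb. The 3 Mief1 regions held 3.33, 5.56 and 2.83 GGAC per kb, on either side of the median of 4.09. Over their exonic bases alone they held 0, 4.45 and 2.99 per kb, all below the exonic median of 4.62. These are counts of letters, and say nothing of which sites were methylated or bound.

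The rest of the pathway was followed in 71 genes, from the eIF2 kinases to amino acid transporters and tRNA synthetases. A peak over an exon of the gene was found for 41 of them, with 27 in normal 1, 24 in normal 2, 29 in starved 1 and 29 in starved 2, and 16 had one in all 4 lists. Eif2ak1, the heme-regulated eIF2 kinase, was the one gene with exon peaks in both starved lists and neither normal list, with 217 IP reads in starved 1 and 36 in starved 2, and no gene showed the opposite. Among all 7997 genes with an exon peak, 3389 had one in all 4 lists. In both starved lists alone there were 377, in both normal lists alone 65, and in replicate 1 of both conditions alone 326. No exon peak was found in any list for 30 of the 71, and the share without one over all annotated genes was not counted. Of the 12 genes of amino acid and one-carbon synthesis, 8 had none, among them the serine pathway enzymes Phgdh, Psat1 and Psph, while the one-carbon enzyme Aldh1l2 and the transaminase Gpt2 had exon peaks in all 4 lists and Pck2 and Aldh18a1 in replicate 1 of both conditions. Of the 15 stress effectors 7 had none, the secreted factors Gdf15 and Fgf21 included, and 3 had exon peaks in all 4 lists, and of the 9 amino acid transporters 1, Slc3a2, had none and 4 had them in all 4 lists. None was found for 7 of 16 genes of the eIF2 machinery, 4 of 6 bZIP partners and 3 of 13 genes of tRNA charging and export.

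In the 16 pathway genes with exon peaks in every list, the length under peaks was longer in starved MEFs in both replicates for 9 and shorter for 2, Gcn1l1 and Ppp1r15b. Over all 3389 such genes the shares were 49.6% longer and 11.5% shorter, so the 9 of 16 (56.2%) stood near that background. Stc2, which encodes the secreted glycoprotein stanniocalcin 2, had 700 and 740 bp under peaks in normal 1 and normal 2 and 2010 and 1310 bp in starved 1 and starved 2. Within those lengths its IP reads per kb were 131.4, 145.9, 267.7 and 241.2 and its input reads per kb 22.9, 28.4, 28.9 and 46.6. The starved lists held the higher values in each, though input reads in starved 1 (28.9) and normal 2 (28.4) were close. On the log2 scale its IP reads per kb differed by 1.026 and 0.725 in replicates 1 and 2. The median over the 3389 genes was 0.685 and 0.424. Its input reads per kb differed by 0.336 and 0.714, beside a median of -0.143 and -0.19.

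Regions with a peak in all 4 lists numbered 34 for 12 pathway genes by peak name, and 24 of them lay over an exon of the named gene. In edgeR, none of the 34 was called for the IP/input ratio (1 at an unadjusted p under 0.05, none with DESeq2), 1 for IP reads and 1 for input reads per base, both at Jun and both lower in starved MEFs. The median log2 difference was -0.08 for the ratio, 0.13 for IP and 0.12 for input reads, beside -0.02, 0.01 and 0.02 over all regions. Over the 24 regions on the genes' own exons these were -0.08, -0.10 and 0.05. The region with the unadjusted p under 0.05 for the ratio was at Cebpa, at -0.64 ± 0.25 (SE, edgeR, adjusted p 0.999). Its IP reads per base differed by 1.15 ± 0.42 (adjusted p 0.363) and its input reads by 1.75 ± 0.46 (adjusted p 0.174). Both were higher in starved MEFs, and the region also overlaps Gm45091.

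Jun, an immediate early AP-1 subunit that pairs with ATF4 family proteins, held 15375, 17994, 4146 and 4274 IP reads in normal 1, normal 2, starved 1 and starved 2 at chr4:95049671-95052350. Input reads were 4446, 6496, 649 and 930. Both fell well below the normal lists in both starved lists. On the log2 scale IP reads per base decreased by 2.54 ± 0.21 (SE, edgeR, adjusted p 0.00302) and input reads by 2.58 ± 0.21 (adjusted p 0.00138), while the IP/input ratio differed by 0.03 ± 0.17 (adjusted p 0.999). Without the length offset the differences were as large, -2.68 and -2.72, with an adjusted p of 0.105 for IP and 0.0793 for input reads in fits that called no region. The region overlaps the antisense gene Junos, and their reads cannot be told apart.

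In the other lists the gene with the largest difference in IP reads did not pass the edgeR test. Ppp1r15b, the constitutive partner of Ppp1r15a that also directs dephosphorylation of eIF2, held 9947, 12528, 12633 and 13386 IP reads and 2608, 3286, 1707 and 2161 input reads in normal 1, normal 2, starved 1 and starved 2. Its folds were 3.08, 3.81, 3.17 and 4.13, with normal and starved values overlapping, and its IP reads per base differed by -0.33 ± 0.18 on the log2 scale (edgeR, adjusted p 0.628). The region also overlaps Gm26616 on the minus strand, and their reads cannot be told apart. Of the eIF2 phosphatase subunits, Ppp1r15b therefore had peaks in every list and Ppp1r15a in none.

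The transporter Slc7a1, which takes up cationic amino acids, had 11 regions in all 4 lists. The one with the largest IP difference in size lay at chr5:148341711-148343020, with 1267, 1218, 1633 and 1432 IP reads and an IP difference per base of -0.42 ± 0.21 (edgeR, adjusted p 0.568). Stc2 at chr11:31359751-31360630 held 92, 81, 215 and 229 IP reads and 16, 16, 23 and 50 input reads, with IP per base at 0.56 ± 0.24 (edgeR, adjusted p 0.481). The 4-list region named for Tars lay over Adamts12 and the one named for Aldh18a1 over no exon, and their values are not given. Aldh18a1 had peaks over its own exons in normal 1, with 134 IP reads, and in starved 1, with 143.

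**Figure D4:**
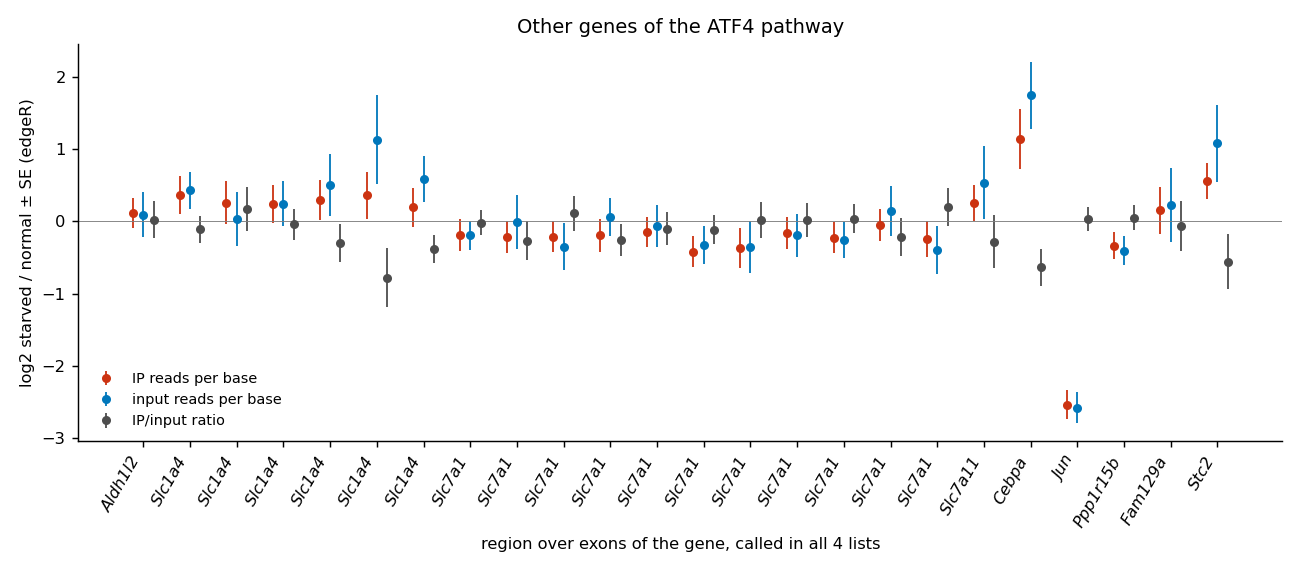
Log2 difference between starved and normal MEFs with its SE (edgeR) for the 24 regions over exons of other pathway genes with a peak in all 4 lists, for IP reads per base (red), input reads per base (blue) and the IP/input ratio (gray). Jun lies at -2.54 in IP and -2.58 in input reads with its ratio at 0.03. The other 23 regions did not pass the test, among them Cebpa at 1.15 in IP and 1.75 in input reads with its ratio at -0.64.

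As a check of the label, exon peaks were found for 4 of 8 fibroblast markers (Col1a2, Col3a1, Pdgfra and Pdgfrb), 1 of 4 macrophage markers (Csf1r), 1 of 3 endothelial markers (Kdr) and 0 of 4 epithelial markers. In all 4 lists, 2 fibroblast, 1 macrophage and 1 endothelial marker had one, so the check does not settle the label. Col1a1, Fn1, Vim and Thy1 had no peak, so these fibroblast markers also stand among the genes that the peak lists leave out.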

How the data were processed

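RIP-seq of YTHDF3 was performed by the authors on normal and 2 h starved MEFs, with 2 replicates of IP and input RNA each. Per the study's methods, trimmed reads were aligned to mm10 with TopHat2 (2.0.13, per the labels), and diffReps, run on IP against input of each replicate, gave peaks with reads, p-values and HOMER gene names. One deposited list holds read counts; the deposited signal of the other lists is counts multiplied by 1 factor per library. The factors, 0.655 to 1.53, were recovered from the steps between values, and 100% of IP and input values came out as whole reads (within 0.011). The deposited p-value of each peak was used for the threshold alone. Factors balance IP and input within a list and not between lists.

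Peaks were kept at a fold of at least 2 and p under 0.0001, merged at 1 bp and placed on GENCODE vM21 exons. The kept peaks held 8818619 to 19271667 IP reads and 2507434 to 5157523 input reads per list, which is not the library depth. edgeR 4.0.16 quasi-likelihood fits (R 4.3.3, TMM, Benjamini-Hochberg, 0.05) used the 6531 regions with peaks in all 4 lists. The ratio was the interaction of IP and starvation with a term per culture, and reads per base used the called length as an offset. The steps were tested on simulated data. Alternatives included DESeq2 1.42.0, other scaling, filters, overlaps and thresholds, and leaving out each list. All 10 members were named; of other pathway genes, those past a test, at most 3 a list, or else the gene of each list with the largest change of IP reads per base, plus genes in counts of 5 or fewer, chosen after their values were seen. Other genes are named only as examples of presence or absence. The members and lists were chosen with earlier results of these data known. Pandas 2.3.3, scipy 1.17.1 and pysam 0.24.0 were used.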

Additional observations from a re-analysis of the deposited data

How the results depend on the processing

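The replicate numbers are not stated to mark a shared batch. The difference between replicates 2 and 1 correlated over regions between normal and starved MEFs at r = 0.27 for the fold, 0.45 for IP and 0.31 for input reads per base, over 2 pairs of lists. With a replicate block, the ratio test called 1 region as before, IP reads per base 655 against 73 and input reads 255 against 64. The Mief1 calls did not change, but the longest Mief1 region came near the threshold in IP reads. It stood at -0.396 (edgeR with the block, adjusted p 0.0631), where the fit without the block gave 0.569. With DESeq2 the calls were 180 for IP and 124 for input reads. Matching peaks at 50% reciprocal overlap gave 0 for the ratio, 110 for input reads and 5 against 47 for the 1.8-fold change. The filter on low counts gave 0 for the ratio. Peaks with a fold of at least 4, on 295 regions, gave 0, 0 and 0 in the 3 tests and 8 for the 1.8-fold change. Without the length offset 0 were called in IP and 0 in input reads. At an unadjusted p under 0.05, those counts of 0 stood beside 104 regions for the ratio with 50% overlap and 189 with the filter, 20, 25 and 22 for the ratio, IP and input at a fold of at least 4, and 549 and 504 for IP and input without the offset. A 1.5-fold cutoff gave 179 regions, a 2-fold one 26, and replicate 1 or 2 alone 429 to 543. Leaving out 1 list gave 1 to 3 ratio calls, 41 to 201 for IP and 83 to 201 for input reads. With 1 list left out, the longest Mief1 region ranged from -0.103 to 0.051 around -0.032 in the ratio, changing sign without normal 2 (0.013) and without starved 1, and the second ranged from -0.097 to 0.0 around -0.035 in IP reads, with its sign lost without normal 2. No Mief1 region passed a test under any alternative. Jun lost its calls in the fits without the length offset, at -2.68 in IP and -2.722 in input reads. Cebpa, not called as reported, was called higher in input reads with DESeq2, and in input and IP reads with the block, without normal 1 and without starved 2, and 1 region named Map1lc3b, over Zcchc14, was called higher in IP reads with the block. Assigning peaks by exon took the members with a peak from 4 to 3, and GGAC over exonic bases alone was 6.51 per kb against 6.53. The smallest peaks held 11 to 17 IP reads, and the total depth of the libraries is unknown. The cause of these moves was not tested.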
